A study of Mus musculus with 36 samples.

Results

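Ionotropic and metabotropic glutamate receptors and the auxiliary subunits that travel with them were followed in RNAseq counts from primary mouse cortical cultures. The members were the rows of the count table whose GENCODE symbol was 1 of 37 receptor or auxiliary subunit genes and whose mean count over the 36 libraries was above 5. Of the 37 genes, 36 passed, among 20355 genes tested in all, and the 1 that did not was Grm6, with a mean count of 3.06. The 36 were 4 AMPA receptor subunits, 11 AMPA receptor auxiliary subunits, 5 kainate receptor subunits, 2 kainate receptor auxiliary subunits, 7 NMDA receptor subunits, 1 delta receptor subunit and 6 metabotropic receptors.

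The cultures were commercial dissociated cortical cells (C57EDCX) of embryonic day 18 mice, treated from day 11 in vitro. Control cultures received no drug, DEX cultures received 1 µM dexamethasone, a synthetic agonist of the glucocorticoid receptor, for 72 h, and DEX + RU-486 cultures received 1 µM dexamethasone together with 1 µM RU-486, an antagonist of that receptor. Each group had 12 libraries, 6 in each of 2 batches named in the sample labels, and nothing in the labels says whether replicate cultures came from separate cell preparations, so p-values describe the spread between these cultures. The comparisons ask whether 72 h of glucocorticoid changed the transcripts of the excitatory receptors and whether the antagonist changed them back.

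Fast excitatory transmission in cortex is carried by AMPA receptors, tetramers of GluA1 to GluA4, while NMDA receptors pass calcium when glutamate and depolarisation coincide and kainate receptors modulate release and excitability. AMPA receptors are gated and trafficked with small membrane partners, the TARPs (Cacng genes), cornichons (Cnih) and Shisa proteins, and kainate receptors with Neto proteins. Metabotropic receptors signal through G proteins, group I through phospholipase C and groups II and III through inhibition of adenylyl cyclase.

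Libraries held 12.1 to 82.4 M counts, with RNA integrity numbers (RIN) of 1.4 to 9.2. The 6 libraries with a RIN under 3 were all of batch 2, 2 from each group, and 2 libraries of batch 1 were at 3.9 (DEX) and 5.6 (DEX + RU-486). These 8 libraries stood apart and were left out of the edgeR comparisons within batches, which used the 28 libraries with a RIN of 6 or above. Among those of batch 1, RIN and depth moved with the treatment. The 6 controls had RIN 7.8 to 9.2 and 24.2 to 82.4 M counts, the 5 DEX libraries RIN 6.2 to 7.8 and 12.1 to 15.1 M counts, and the 5 DEX + RU-486 libraries RIN 6.6 to 7.9 and 17.4 to 26.7 M counts. Batch 2 had RIN ranges of 7.4 to 8.0, 7.4 to 7.7 and 7.6 to 8.7, and depths of 27.8 to 47.3 M counts in control, 21.3 to 29.3 in DEX and 22.8 to 27 in DEX + RU-486, so its DEX + RU-486 libraries were all less deep than its controls. The neuron markers Rbfox3, Tubb3, Map2, Snap25, Syt1, Stmn2 and Nefl summed to between 2376 and 4303 CPM (the count scaled by library size, with TMM factors) in the 28 libraries, against 14.8 to 52.1 CPM for 7 astrocyte markers and 0.124 to 3.15 CPM for 7 microglia markers. Oligodendrocyte lineage markers reached higher sums, at 61.4 to 750 CPM in those of batch 1 and up to 1023 CPM in those of batch 2.

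Among the 12 batch 2 libraries with a RIN of 6 or above, DEX + RU-486 replicates 35 and 36 stood apart from the other 10, those of their own group included. Their RIN, 8.7 and 8.5, was also above the 7.4 to 8.0 of the other 10. In both replicates 14 of the 36 members were above, and 6 below, every one of the 10. The same was not counted over all genes, so these numbers do not show whether the members differ from other genes here. Grik1 was at 17.5 and 14.6 CPM against 34 to 55.1 CPM in the 10, Grik3 at 16.5 and 19.8 against 34.5 to 59, Cacng5 at 1.42 and 1.88 against 4.35 to 5.83, Grid1 at 49.4 and 49.9 against 26 to 38, and Grm7 at 46.2 and 40 against 21 to 28.3. Their summed inhibitory neuron markers were 127 and 142 CPM against 362 to 489 CPM, and their oligodendrocyte lineage markers 134 and 183 CPM against 345 to 1023 CPM. Beside the 16 batch 1 libraries with a RIN of 6 or above, 19 of those 20 members lay inside the batch 1 range in both libraries (Gria2 did not). Of all 36 members 32 did so, and Gria2, Gria3, Cacng7 and Grik2 did not. The same was not counted for the other 10 libraries or over all genes. Batch 1 was at 8.49 to 25.3 CPM for Grik1, 9.02 to 23.1 for Grik3, 0.776 to 2.84 for Cacng5 and 28 to 53.4 for Grm7. Batch 1 sums were 76.8 to 278 CPM for the inhibitory and 61.4 to 750 CPM for the oligodendrocyte lineage markers, which hold those of both libraries as well. The labels place both in batch 2, where they were kept. The cause was not tested. Counts of members by edgeR and ratios that include these libraries are given again without both where they change, a choice made after the data were seen.

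A promoter window of 300 bases, 250 before and 50 after the RefSeq start site (GRCm38.p6), was at hand for 23 of the 36 members. The members without one were Gria1, Gria3, Cacng4, Shisa6, Shisa9, Grik1, Neto1, Grin2a, Grin2b, Grin3a, Grid1, Grm5 and Grm4. The windows were searched on both strands for the glucocorticoid receptor element (AGAACA, any 3 bases, TGTTCT), for the hexamer at either end of it (AGAACA or TGTTCT, which are reverse complements) and for the cyclic AMP element TGACGTCA. The full element was in 0 of the 28 member windows and in 3 of all 32851 windows (0.00913%), and the cyclic AMP element in 0 of 28 and in 1.79% of all. The hexamer was in 3 of the 28 member windows, those of Cnih2, Grin3b and Grm8, and in 19% of all windows. Of the 12 members with a window that were called in a treatment comparison below, Cnih2 was the 1 with the hexamer, so the 250 bases before its start site are printed beside those of Gria2, an abundant AMPA receptor subunit, which has none. The hexamer is in capitals and begins 155 bases before the start site. The printed bases lie at chr19:5098522-5098771 for Cnih2 and at chr3:80802836-80803085 for Gria2, both on the minus strand, and their GC contents were 65.6% and 64.8%. A match of letters is a description and not a binding site.
Cnih2: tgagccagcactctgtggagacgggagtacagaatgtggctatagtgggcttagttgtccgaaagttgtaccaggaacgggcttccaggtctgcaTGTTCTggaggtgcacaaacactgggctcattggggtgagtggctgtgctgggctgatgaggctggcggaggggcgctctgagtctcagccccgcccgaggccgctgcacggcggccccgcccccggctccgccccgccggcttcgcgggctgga
Gria2: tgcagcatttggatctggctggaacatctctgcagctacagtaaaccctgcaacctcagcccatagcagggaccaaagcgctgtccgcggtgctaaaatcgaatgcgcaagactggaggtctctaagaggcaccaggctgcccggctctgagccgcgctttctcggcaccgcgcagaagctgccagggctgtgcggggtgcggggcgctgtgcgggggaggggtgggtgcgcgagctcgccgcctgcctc

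In the 10 control libraries with a RIN of 6 or above, the members spanned a 2161-fold range of level per kilobase of exon. The unit is CPM per kilobase, as mean ± SD over the 10 libraries. Over both batches the auxiliary subunits had the highest means, with Cnih2, a cornichon that slows AMPA receptor closing, at 48.9 ± 14.1 and Cacng4 (TARP γ-4) at 46.8 ± 7.71. The AMPA receptor subunits Gria1 (44.4 ± 4.2) and Gria2 (36.3 ± 3.34) followed, and Gria4 (9.3 ± 1.65) and Gria3 (2.23 ± 0.678) were lower. Among NMDA receptor subunits Grin2b, the GluN2B subunit that prevails in young neurons, was at 34.3 ± 9.72, the obligatory Grin1 at 15.3 ± 3.26, Grin2a, which gains ground with maturation, at 3.43 ± 0.868 and the glycine-binding Grin3a at 2.83 ± 0.535. Of the kainate receptor subunits Grik5 led with 26.1 ± 2.99, and Grik2, the main pore-forming subunit, was at 6.24 ± 1.81. Grm5, the group I receptor mGlu5, was at 17.6 ± 5.15 and Grm3, a group II receptor found on neurons and astrocytes, at 9.6 ± 2.58. In this order 31 members were above 1, and of the 35 pairs of neighbours 6 differed by more than the larger of their SDs, so ranks inside the upper and middle part are not firm. The order also differed between the batches. In the 6 controls of batch 1, Cnih2 (58.6 ± 8.43) and Cacng4 (52 ± 4.74) stood above Gria1 (42.5 ± 4.24) and Gria2 (36.3 ± 4.18), and in the 4 of batch 2 Gria1 (47.2 ± 2.25) was highest, followed by Cacng4 (38.9 ± 1.76), Gria2 (36.3 ± 2.07) and Cnih2 (34.3 ± 1.44). At the bottom were Grin3b (0.107 ± 0.0672) and Grin2c, the GluN2C subunit of cerebellum (0.0226 ± 0.0289). About 32.1% of the exonic length of Grin3b overlaps Tmem259 and 13.5% of that of Grin1 overlaps Grin1os, and the sources used here do not say whether strand was used in counting.

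**Figure D1:**
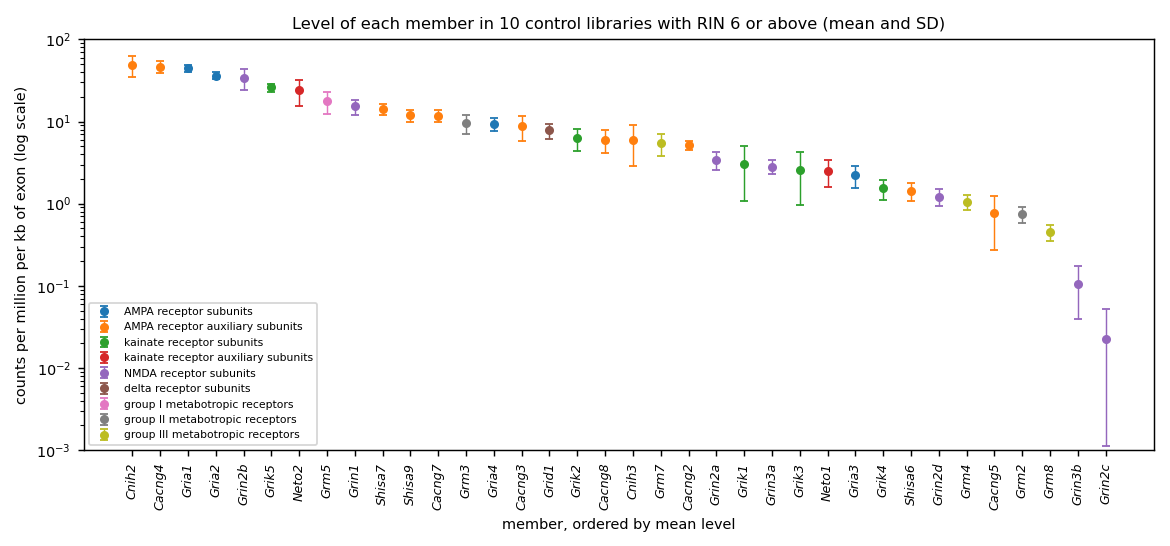
Mean level of each of the 36 members in 10 control libraries (RIN 6 or above), as CPM per kilobase of exon on a log axis, ordered by mean and coloured by receptor class. Bars are the SD, and the lower bar of Grin2c, whose SD is above its mean, is shortened. The auxiliary subunits Cnih2 and Cacng4 stand beside Gria1 and Gria2 at the top, and Grin2c is lowest.

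With all 36 libraries and the batch as a covariate, none of the 36 members passed an adjusted p under 0.05 (edgeR quasi-likelihood test, Benjamini-Hochberg over all genes) in DEX against control, DEX + RU-486 against control or DEX + RU-486 against DEX. Over all genes the same rule called 0.0246%, 0% and 0%. Before adjustment, with p under 0.05, 12 of the 36 members were lower and 0 higher in DEX against control, beside 10.1% and 6.86% of all genes. They were Gria3, Cacng2, Cacng8, Shisa7, Grik5, Neto2, Grin2b, Grin3a, Grid1, Grm5, Grm3 and Grm4. In DEX + RU-486 against control 7 were lower and 0 higher, beside 6.63% and 4.19% (without replicates 35 and 36, 11 and 0, beside 8.38% and 5.97%), and in DEX + RU-486 against DEX 0 and 0, beside 1.23% and 1.44%. The member nearest to the threshold was Grm3, with a log2 fold change in DEX of -0.51 (SE 0.12, edgeR adjusted p = 0.0791). DESeq2 called 1 member in DEX, Grm3 (log2 fold change -0.46, adjusted p = 0.0262), and 0 in each of the other two comparisons, beside 2.21%, 0.481% and 0.00983% of all genes.

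When the 28 libraries with a RIN of 6 or above were pooled over both batches, 16 members were lower and 0 higher in DEX against control, beside 11.9% and 7.83% of all genes. In DEX + RU-486 against control 5 were lower (Gria1, Gria3, Cacng7, Grin3a and Grm5) and 0 higher, beside 5.87% and 2.99%. Without replicates 35 and 36 this comparison called 8 lower (the same 5 with Cnih2, Grin2b and Grid1) and 1 higher (Cacng3), beside 5.67% and 3.97%. In DEX + RU-486 against DEX 0 members were called, as were 0% of all genes, and 5 members were higher and 0 lower with p under 0.05 before adjustment, beside 5.16% and 3.76%. Without the pair 0 members (0% of all genes) were called there, and 0 had a p under 0.05. These pooled values join 2 batches that differed, as the following comparisons within batches show.

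In batch 1, 17 of the 36 members were lower and 1 was higher in DEX than in control, beside 14.6% and 8.82% of all genes tested. The lower ones were the AMPA receptor subunits Gria1, Gria2 and Gria3, 7 of 11 AMPA auxiliary subunits (Cacng2, Cacng4, Cacng7, Cacng8, Cnih2, Shisa7 and Shisa9), the kainate auxiliary subunit Neto2, the NMDA receptor subunits Grin1, Grin2b and Grin3a, the delta receptor Grid1, and the metabotropic receptors Grm5 and Grm3. None of the 5 kainate receptor subunits and none of the 3 group III receptors was called. The median log2 fold change of the 36 was -0.31, against 0.01 over all genes. DESeq2 called 14 lower and 1 higher, beside 11.8% and 12.6%. In batch 2 no member was called (0.054% of all genes were), and the median was -0.13. Before adjustment 0 members were higher and 4 lower there, beside 6.87% and 6.83%, and DESeq2 called 0, beside 1.32%.

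**Figure D2:**
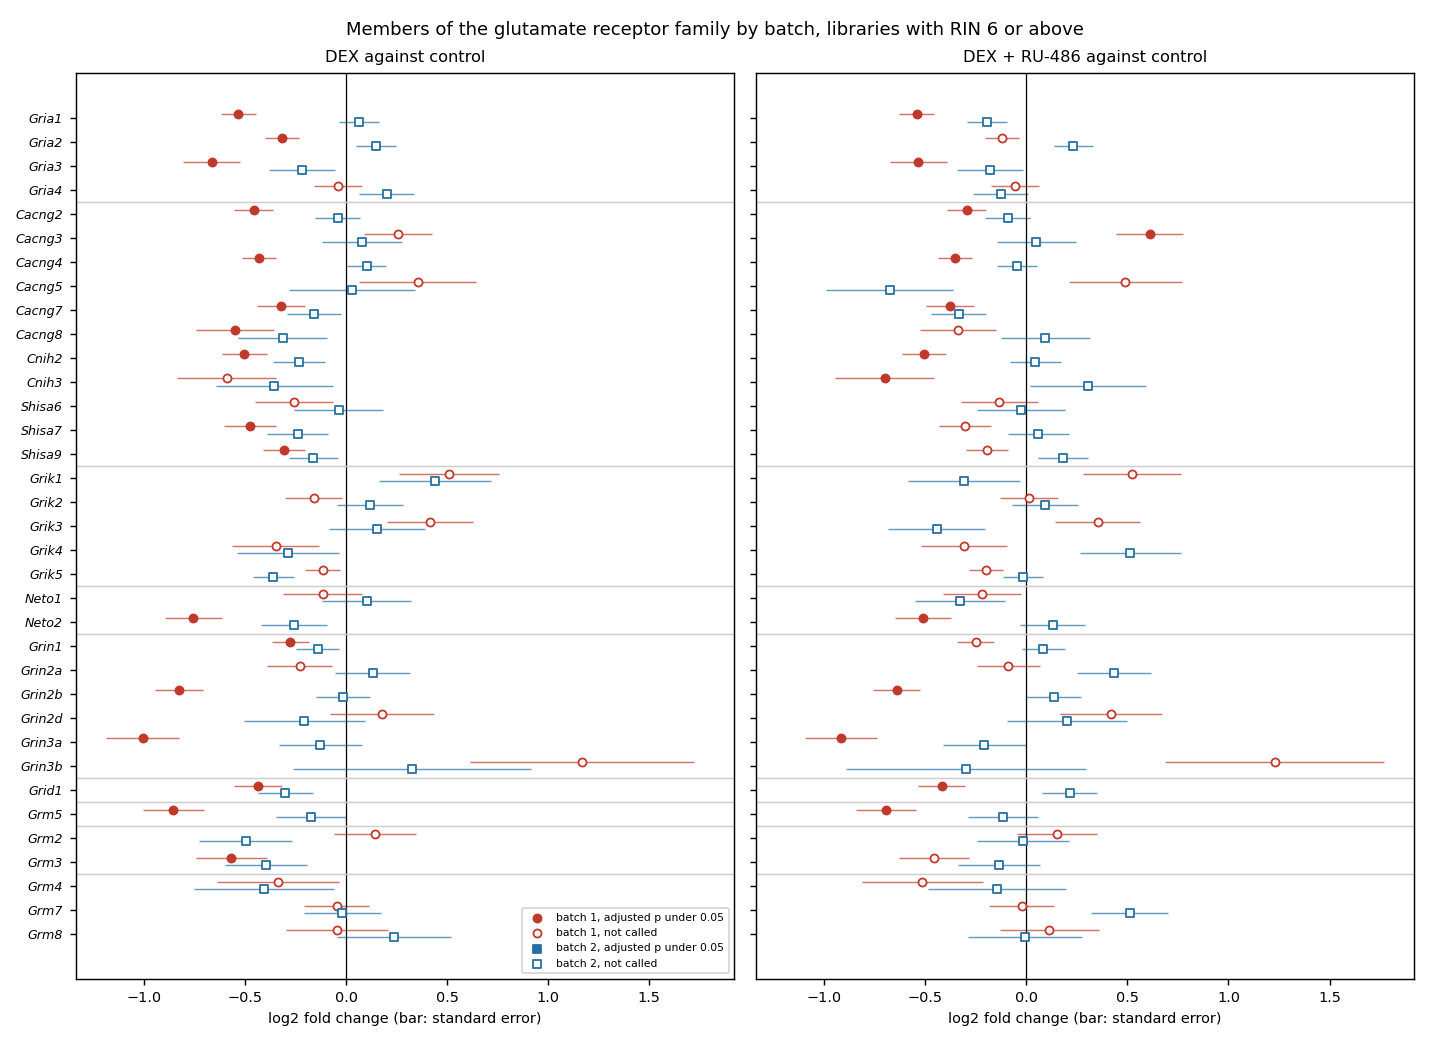
Log2 fold change with its standard error for 35 members (Grin2c, at 3.56 and -2.31 for DEX in batch 1 and batch 2, is left out for scale), in batch 1 (circles) and batch 2 (squares), libraries with RIN 6 or above. Filled symbols passed an adjusted p under 0.05, all of them in batch 1, and grey lines part the receptor classes.

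Gria1 (GluA1, the subunit inserted during potentiation, chr11:57011387-57330244, GRCm38, plus strand) ran from 232 to 303 CPM in the 6 batch 1 controls, with a median of 255. The 5 DEX libraries held 164, 166, 170, 191 and 198 CPM, and the 5 DEX + RU-486 libraries 158, 160, 170, 192 and 205 CPM. Every treated library of batch 1 was below every control, and the treated groups overlapped each other. The log2 fold change was -0.53 (SE 0.09, edgeR adjusted p = 4.68e-05) in DEX and -0.54 (SE 0.09, edgeR adjusted p = 8.56e-05) in DEX + RU-486. The controls of batch 2 held 266, 289, 292 and 296 CPM, DEX 264, 302, 306 and 309 CPM, and DEX + RU-486 216, 224, 265 and 283 CPM. There the groups DEX and control overlapped, and the DEX effect was higher in batch 2 than in batch 1 by 0.60 on the log2 scale (SE 0.13, edgeR adjusted p = 0.0103).

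Gria2 (GluA2, which makes the AMPA receptor impermeable to calcium, chr3:80681450-80802835, minus strand) ran from 482 to 673 CPM in the batch 1 controls, with a median of 561, and the DEX libraries held 416, 438, 443, 461 and 515 CPM. The groups overlapped, with 4 of 5 DEX libraries under the lowest control. Its log2 fold change was -0.32 (SE 0.08, edgeR adjusted p = 0.00685) in DEX and -0.12 (SE 0.08, adjusted p = 0.35) in DEX + RU-486, whose libraries spanned 455 to 573 CPM. The batch 2 DEX libraries (604, 608, 634 and 637 CPM) lay above the controls (520, 566, 576 and 596 CPM) without a call. The effect in DEX differed between the batches by 0.47 (SE 0.13, edgeR adjusted p = 0.0356). Without control replicate 1 or without control replicate 5, the batch 1 call of Gria2 was lost (highest adjusted p = 0.0868).

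Gria3 (GluA3, on the X chromosome) spanned 18.7 to 37.9 CPM in the batch 1 controls (median 22.9) and 13.9, 14.9, 14.9, 16.7 and 18.4 CPM in DEX, so that all DEX libraries were below the controls. The DEX + RU-486 libraries held 14.3, 14.5, 17.5, 19 and 20.9 CPM, 2 of them inside the control range. Its log2 fold changes were -0.67 (SE 0.14, edgeR adjusted p = 0.000918) in DEX and -0.53 (SE 0.14, edgeR adjusted p = 0.0075) in DEX + RU-486, and the second was lost without control replicate 1 (adjusted p = 0.0512). Gria4 (GluA4, found in interneurons and young neurons) had log2 fold changes of -0.04 and -0.06 and was not called.

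Among the AMPA auxiliary subunits, Cacng2 (stargazin, the TARP that anchors receptors at the postsynaptic density) spanned 25 to 36 CPM in the batch 1 controls (median 28.4) and was 19.8, 21.6, 21.9, 22 and 22.7 CPM in DEX, below every control, and 19.6, 22.6, 24.2, 26.6 and 27.8 CPM in DEX + RU-486. Its log2 fold change was -0.46 (SE 0.10, edgeR adjusted p = 0.000809) in DEX and -0.30 (SE 0.10, edgeR adjusted p = 0.0285) in DEX + RU-486. Cacng4, the most abundant TARP per kilobase, fell from 162 to 207 CPM in the controls (median 187) to 116, 131, 142, 146 and 156 CPM in DEX, again without overlap. The DEX + RU-486 libraries held 128, 130, 149, 160 and 164 CPM, with 1 above the lowest control. The log2 fold changes were -0.43 (SE 0.08, edgeR adjusted p = 0.000399) and -0.35 (SE 0.08, edgeR adjusted p = 0.00386). For Cacng4 the batch 2 controls (130, 140, 143 and 144 CPM) and DEX libraries (127, 149, 156 and 160 CPM) overlapped, and the difference between batches was 0.53 (SE 0.13, edgeR adjusted p = 0.0171).

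Cnih2, the gene whose promoter bases are printed above, spanned 63.8 to 94.5 CPM in the batch 1 controls (median 83.9) and 53.1, 54.8, 55.5, 57.8 and 62.5 CPM in DEX. All DEX libraries were below all controls, with a log2 fold change of -0.50 (SE 0.11, edgeR adjusted p = 0.00113). In DEX + RU-486 they were 46.1, 46.5, 50.3, 68.2 and 71.9 CPM (log2 fold change -0.51, SE 0.11, edgeR adjusted p = 0.00159), with 2 libraries inside the control range. The batch 2 DEX libraries were also below their controls, at 33.8, 38.9, 42.3 and 43.2 CPM against 44.2, 46.6, 48.3 and 48.4 CPM, with a log2 fold change of -0.23 (SE 0.13) that was not called (edgeR adjusted p = 0.43). The remaining auxiliary subunits that were called had smaller or less firm changes. Cacng8 (TARP γ-8, enriched in hippocampus) spanned 13.4 to 20.3 CPM in the batch 1 controls (median 17.2) and was 6.34, 10.8, 12.1, 13.2 and 15.3 CPM in DEX (log2 fold change -0.55, SE 0.19, edgeR adjusted p = 0.0352). Shisa7, a Shisa protein of the postsynaptic membrane, spanned 78.4 to 114 CPM (median 106) and was 61.2, 61.2, 70.3, 81.6 and 94.5 CPM in DEX (log2 fold change -0.47, SE 0.13, edgeR adjusted p = 0.00803). Its batch 2 DEX libraries, at 64.6, 67.9, 70.8 and 72.6 CPM, were also under the controls, at 74.1, 81.8, 82.7 and 89.9 CPM, with no call (edgeR adjusted p = 0.504). Cacng7 (TARP γ-7) spanned 20.7 to 37.7 CPM in the batch 1 controls (median 30.4), 21.3 to 26.8 CPM in DEX and 19.3 to 26 CPM in DEX + RU-486. The treated Cacng7 libraries overlapped the lowest control, and the log2 fold changes were -0.32 (SE 0.12, edgeR adjusted p = 0.0455) and -0.38 (SE 0.12, edgeR adjusted p = 0.0217). Shisa9 changed by -0.31 in DEX. Cacng5, Cnih3 and Shisa6 were not called in DEX. The missing batch 1 call of Cnih3 was near the threshold (log2 fold change -0.59, edgeR adjusted p = 0.0817). Without DEX replicate 7, control replicate 3 or control replicate 6 it was called lower (highest adjusted p = 0.0491). The DEX calls of Cacng7, Cacng8 and Shisa9 were lost when 1 of 8, 6 and 9 libraries, in turn, was left out.

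Cacng3 (TARP γ-3) went the other way. Its batch 1 controls held 16.4 to 45.1 CPM with a median of 20.2, control replicate 1 alone being above 21.6, and the DEX + RU-486 libraries held 32.3, 32.9, 34.3, 37.6 and 45.1 CPM. The log2 fold change in DEX + RU-486 was 0.61 (SE 0.17, edgeR adjusted p = 0.0104) and in DEX 0.26 (SE 0.17, edgeR adjusted p = 0.292). The 5 DEX libraries held 25.9, 26, 26.5, 29.6 and 34.7 CPM, each above 5 of the 6 controls. Without control replicate 1, at 45.1 CPM, the changes were 0.94 (SE 0.11, edgeR adjusted p = 1.85e-06) in DEX + RU-486 and 0.60 (SE 0.11, edgeR adjusted p = 0.0003) in DEX, so the missing call in DEX rests on that library. Batch 2 gave 0.05 (SE 0.20) in DEX + RU-486, or 0.18 (SE 0.24) without replicates 35 and 36, and 0.08 (SE 0.20) in DEX, none of them called.

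The kainate receptor subunits gave no call against control in either batch, though without control replicate 5 Grik1 was called higher in batch 1 DEX (log2 fold change 0.70, SE 0.25, edgeR adjusted p = 0.0492, against 0.51 and adjusted p = 0.137 with it). For Grik5 the batch 2 DEX libraries (90.7, 92.9, 95.3 and 109 CPM) were all under the controls (122, 124, 127 and 129 CPM), without a call. Grik2 was at 52.8 to 86.1 CPM in the batch 1 controls (median 63.3) and at 44.1, 56.2, 62.3, 63.8 and 70.9 CPM in DEX, which overlapped throughout (log2 fold change -0.16, SE 0.14, edgeR adjusted p = 0.452). The 5 DEX + RU-486 libraries held 49, 62.2, 62.4, 70.1 and 91.7 CPM. Their partner Neto2, which slows kainate receptor desensitisation, ran from 151 to 251 CPM in the batch 1 controls (median 173) and was 85.6, 104, 106, 108 and 133 CPM in DEX, below all controls. Its log2 fold change was -0.76 (SE 0.14, edgeR adjusted p = 0.000206) in DEX and -0.51 (SE 0.14, edgeR adjusted p = 0.00949) in DEX + RU-486, where it was lost without control replicate 5 (adjusted p = 0.0754). Batch 2 gave a DEX change of -0.26 (SE 0.16), which was not called.

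In DEX against control of batch 1, the 3 largest falls among the called members were those of Grin3a, Grm5 and Grin2b. Grin2b (chr6:135713233-136173511, minus strand) was at 803, 826, 977, 1110, 1114 and 1203 CPM in the 6 controls and at 465, 511, 512, 656 and 698 CPM in DEX. The 5 DEX + RU-486 libraries held 606, 622, 630, 680 and 691 CPM, so that every treated library was below every control. The log2 fold changes were -0.83 (SE 0.12, edgeR adjusted p = 1.07e-05) and -0.64 (SE 0.12, edgeR adjusted p = 0.000323). Its batch 2 controls stood lower, at 496, 572, 700 and 712 CPM, and DEX (576, 580, 585 and 690 CPM) and DEX + RU-486 (600, 609, 744 and 746 CPM) overlapped them. Both effects differed between the batches, by 0.81 (SE 0.18, edgeR adjusted p = 0.0103) in DEX and 0.78 (SE 0.18, edgeR adjusted p = 0.0213) in DEX + RU-486. The second call was lost without replicates 35 and 36 (0.57, SE 0.20, edgeR adjusted p = 0.379), with the RIN as a covariate (0.86, edgeR adjusted p = 0.128) and with all 36 libraries (0.82, edgeR adjusted p = 0.0916), and the first with all 36 libraries (0.90, edgeR adjusted p = 0.0606). Scaling to the neuron markers ended both calls (0.43 and 0.47).

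Grin3a, whose product lowers the calcium permeability of NMDA receptors (chr4:49661611-49845744, minus strand), spanned 24.7 to 46.7 CPM in the batch 1 controls with a median of 32.5. The DEX libraries held 11.2, 13.9, 18.2, 20.4 and 22.6 CPM and the DEX + RU-486 libraries 14.5, 16.2, 17.3, 17.6 and 25.9 CPM. DEX did not overlap the controls and 1 DEX + RU-486 library, replicate 14, did. The log2 fold changes were -1.01 (SE 0.18, edgeR adjusted p = 0.000157) and -0.92 (SE 0.18, edgeR adjusted p = 0.000616). In batch 2 the controls (31.6 to 38.5 CPM) overlapped DEX (23.6 to 38.4 CPM) and DEX + RU-486 (22.4 to 37.8 CPM), and the changes of -0.13 (SE 0.20) and -0.21 (SE 0.20) were not called. The second was 0.02 (SE 0.24) without replicates 35 and 36. Unlike Grin2b, Grin3a did not differ detectably between the controls of the 2 batches (log2 difference -0.01, SE 0.18).

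Grm5 (mGlu5, chr7:87584168-88134907, plus strand) spanned 154 to 293 CPM in the batch 1 controls with a median of 212, and was 94.4, 102, 103, 106 and 175 CPM in DEX and 104, 105, 123, 151 and 164 CPM in DEX + RU-486. DEX replicate 7, at 175 CPM, was the 1 DEX library inside the control range. The log2 fold changes were -0.85 (SE 0.15, edgeR adjusted p = 0.000115) and -0.70 (SE 0.15, edgeR adjusted p = 0.00144). The batch 2 changes were -0.17 (SE 0.17) and -0.12 (SE 0.17), and neither was called.

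Grm3 (mGlu3) spanned 26.2 to 39 CPM in the batch 1 controls (median 35.7) and was 12.5, 21.3, 22.8, 28.3 and 32.4 CPM in DEX, with overlap and a log2 fold change of -0.57 (SE 0.18, edgeR adjusted p = 0.018). In batch 2 the DEX libraries, at 14.9, 15.6, 15.6 and 17.1 CPM, were all under the controls, at 19.6, 20.9, 21.8 and 21.8 CPM, and the DEX + RU-486 libraries lay at 17.9, 18.9, 19.2 and 19.8 CPM. The batch 2 change in DEX was -0.40 (SE 0.20, edgeR adjusted p = 0.391) and was not called. The batch 1 call was lost without DEX replicate 7 or without control replicate 2, 4 or 5 (highest adjusted p = 0.0909).

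Grin1, the subunit found in every NMDA receptor, spanned 144 to 207 CPM in the batch 1 controls (median 157) and 126 to 153 CPM in DEX, where it fell by 0.27 on the log2 scale (SE 0.09, edgeR adjusted p = 0.0278). Grid1, a delta receptor that binds cerebellins, spanned 46.2 to 60.3 CPM in the controls (median 52.1) and was 31.3, 37.8, 40.4, 41.7 and 46 CPM in DEX, just below all controls, a fall by 0.43 (SE 0.12, edgeR adjusted p = 0.00758). In DEX + RU-486 Grid1 was 34, 34.5, 35.8, 41.7 and 53.4 CPM, a fall by 0.42 (SE 0.12, edgeR adjusted p = 0.0119). The DEX libraries of batch 2 (26 to 32 CPM) again lay under their controls (35.8 to 38 CPM) for Grid1, with no call (edgeR adjusted p = 0.324). The call of Grin1 was lost when 1 of 6 libraries was left out, and that of Grid1 without control replicate 2. Grin2c was the 1 member called higher in DEX, at 4 to 10 raw counts in each DEX library (29 in all) against 0 to 3 in each control (7 in all). In batch 2 the controls held 1 to 26 counts and DEX 0 to 5, the opposite order, so the call rests on a few reads. Grin2a, Grin2d, Grin3b, Grm2, Grm4, Grm7 and Grm8 were not called in either batch. Without DEX + RU-486 replicate 13, Grm4 was called lower in batch 1 DEX + RU-486 (log2 fold change -1.04, SE 0.26, edgeR adjusted p = 0.00578). With that library it was at -0.51 (edgeR adjusted p = 0.245).

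**Figure D3:**
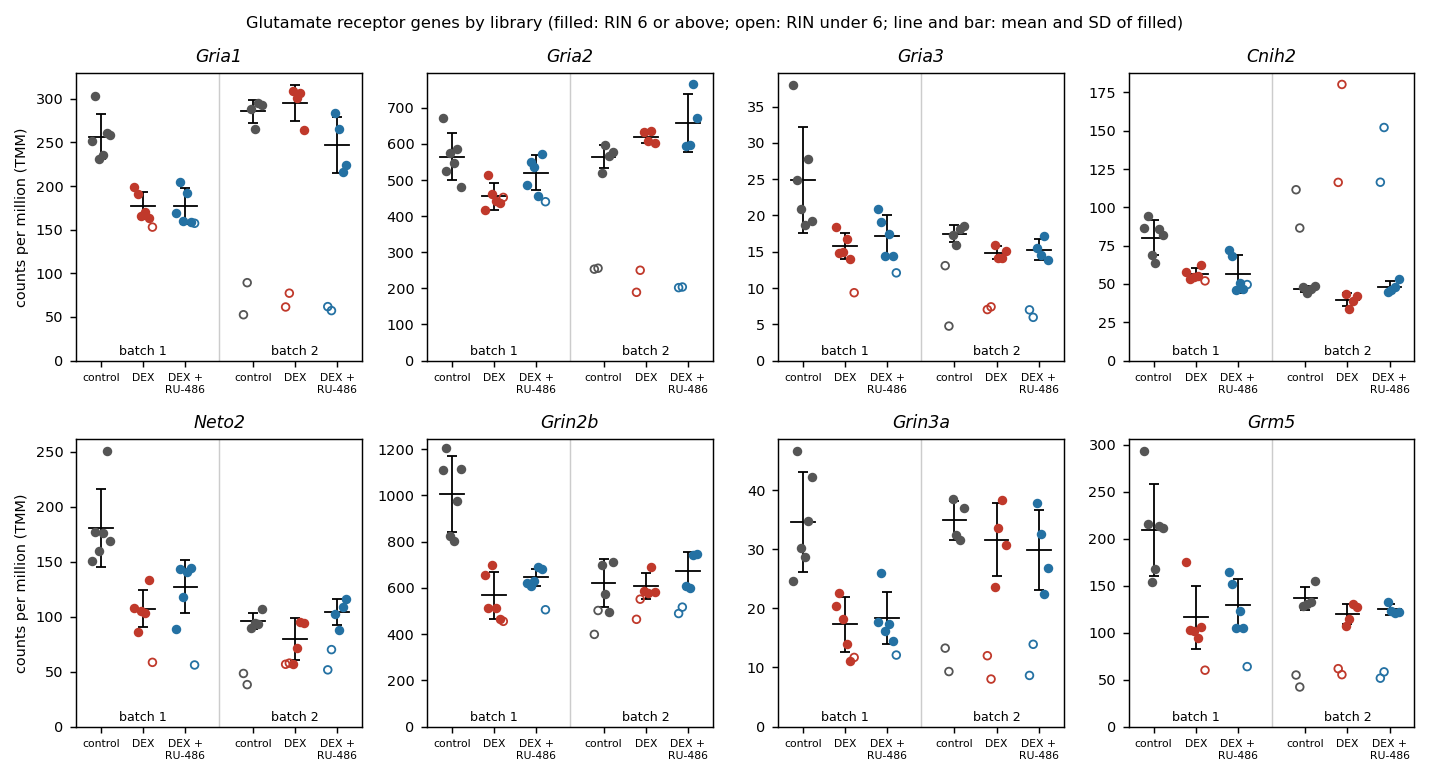
CPM in each of the 36 libraries for 8 members, by batch and group. Filled points have RIN 6 or above, open points lower RIN, and lines with bars are the mean and SD of the filled points. In batch 1 the DEX points of Gria1, Gria3, Cnih2, Neto2, Grin2b and Grin3a with RIN 6 or above lie below all controls, and in batch 2 the open points lie below the filled ones for Gria1, Gria2, Grin3a and Grm5 and above them for Cnih2.

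DEX + RU-486 against control in batch 1 called 12 members lower and 1 higher, beside 11.6% and 7% of all genes. The lower ones were Gria1, Gria3, Cacng2, Cacng4, Cacng7, Cnih2, Cnih3, Neto2, Grin2b, Grin3a, Grid1 and Grm5, and the higher one Cacng3. This comparison uses the same controls as DEX against control, so the 2 lists are not independent. Cnih3, a second cornichon, spanned 13.9 to 34 CPM in the controls and 8.79, 9.4, 12.9, 14.2 and 20 CPM in DEX + RU-486 (log2 fold change -0.70, SE 0.25, edgeR adjusted p = 0.0436), and this call was lost when 1 of 8 libraries was left out. Those of Cacng2, Cacng7 and Grid1 were lost when 1 of 6, 5 and 4 libraries, in turn, was left out. Leaving out control replicate 1 reduced the lower members from 12 to 7, beside 8.41% of all genes. For DEX against control, leaving out control replicate 2 or control replicate 5 reduced the lower members from 17 to 11, beside 9.44% and 9.78% of all genes.

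Between DEX + RU-486 and DEX no member was called in batch 1 (0% of all genes), where 1 was higher and 0 lower before adjustment, that being Gria2 with a log2 difference of 0.19 (SE 0.09, p = 0.0354), beside 3.63% and 2.68% of all genes, and DESeq2 called 0 members and 0% of all genes. In batch 2 no member was called (0.383% of all genes), 10 were higher and 5 lower before adjustment, beside 8.11% and 6.91%, and DESeq2 called 3 higher and 0 lower, beside 1.57% and 1.52%. The smallest p was that of Grid1, higher in DEX + RU-486 by 0.51 on the log2 scale (SE 0.14, edgeR adjusted p = 0.0698). Its DEX + RU-486 libraries held 32.3, 37, 49.4 and 49.9 CPM, the highest values being those of replicates 35 and 36. Without this pair the Grid1 difference was 0.23 (SE 0.15, edgeR adjusted p = 0.9999), 0 members were called (0.00491% of all genes), and 0 were higher and 1 lower before adjustment, beside 2.28% and 2.3%. In DEX + RU-486 against control in batch 2, 0 members were called with them and without them (0% and 0% of all genes). With them 4 were higher and 2 lower before adjustment, beside 2.81% and 2.29%, and without them 0 and 0, beside 1.66% and 0.983%. DESeq2, with them, called 0, beside 0.00491%.

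The tests of the difference between batches called 5 members for DEX against control, the 4 named above (Gria1, Gria2, Cacng4 and Grin2b) and Grin2c with a difference of -5.87 (SE 1.46), beside 4.25% of all genes. For DEX + RU-486 against control they called 1, Grin2b, beside 1.91%, and without replicates 35 and 36 they called 0, beside 0.0393%. For the remaining members a call in batch 1 and none in batch 2 does not show a difference. With the RIN as a covariate, 2 of the 5 for DEX remained called (Gria1 and Grin2b), beside 3.1% of all genes, and with all 36 libraries 0 did, beside 0.172%.

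Levels also differed between the controls of the 2 batches. Of the 36 members, 14 were lower and 8 higher in batch 2, beside 18.9% and 14.2% of all genes. The kainate receptor subunits Grik1 (log2 difference 1.75, SE 0.25), Grik3 (1.70, SE 0.22) and Grik2 (0.67, SE 0.15), the TARP Cacng5 (1.68, SE 0.28) and Neto1 (0.81, SE 0.20) were higher in batch 2. For Grik1 the controls moved from 8.49 to 15.1 CPM in batch 1 to 34 to 39.6 CPM in batch 2. Cnih3 (-1.27, SE 0.27), Neto2 (-0.94, SE 0.15), Cacng8 (-0.83, SE 0.20), Cnih2 (-0.80, SE 0.12), Grm3 (-0.75, SE 0.19), Grin2b (-0.72, SE 0.13) and Grm5 (-0.64, SE 0.16) were lower. Beside this, all 6 inhibitory neuron markers (Gad1, Gad2, Slc32a1, Dlx1, Dlx2 and Sst) were higher in batch 2, with a summed level of 374 to 481 CPM against 76.8 to 145 CPM, and 6 of 7 neuron markers were lower. The part of culture composition in these differences was not tested.

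Many members also differed between libraries of low and higher RNA integrity. Those 6 libraries of batch 2 with the most degraded RNA had 19 members lower and 8 higher than the 12 libraries with a RIN of 6 or above, beside 26.8% and 28.4% of all genes. Without DEX + RU-486 replicates 35 and 36 the counts were 19 and 7, beside 24.9% and 26.3%, and Cacng7 was no longer called. All 4 AMPA receptor subunits were lower, Gria1 by the most. It was at 52.6 to 89.3 CPM (median 61.7) against 216 to 309 CPM (median 286), a log2 fold change of -2.07 (SE 0.11, edgeR adjusted p = 4.08e-12). Grik1 (-2.40, SE 0.26), Cacng5 (-2.18, SE 0.29), Grik2 (-2.08, SE 0.12), Grin3a (-1.57, SE 0.15) and Grm5 (-1.25, SE 0.09) were lower too. Cnih2 went the other way, from 33.8 to 53.2 CPM up to 86.5 to 180 CPM (1.49, SE 0.12), as did Grm2 (0.92, SE 0.19), Grm7 (0.74, SE 0.19) and Cacng4 (0.61, SE 0.13). Of the 17 members lower in batch 1 DEX, 11 were lower, 3 higher (Cacng4, Cacng7 and Cnih2) and 3 not called (Cacng2, Cacng8 and Grm3) in these low-RIN libraries of batch 2. The 11 are also 11 of the 19 members lower at low RIN. The part of RNA integrity in the batch 1 differences was not tested, and there RIN, depth and treatment cannot be told apart.

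**Figure D4:**
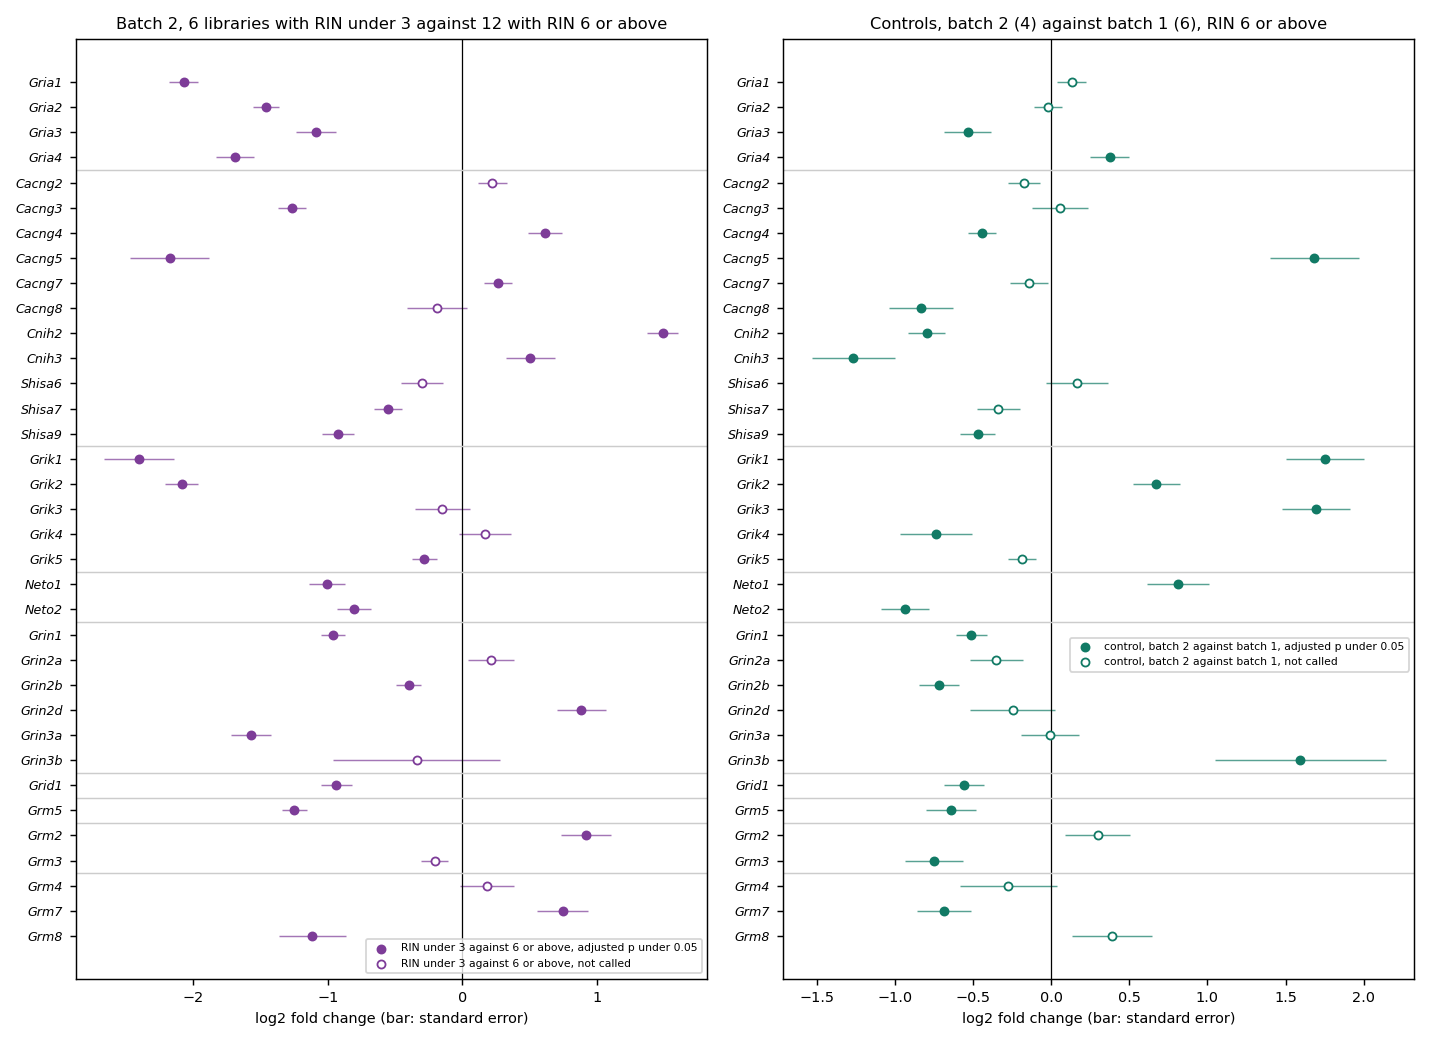
Left, log2 fold change of 35 members in 6 libraries with RIN under 3 against 12 with RIN of 6 or above in batch 2. Right, log2 difference between the 4 controls of batch 2 and the 6 of batch 1, RIN 6 or above. Bars are standard errors, filled points passed an adjusted p under 0.05, and Grin2c (2.98 and 2.85) is left out for scale. All AMPA receptor subunits are lower at low RIN while Cnih2 is higher, and Grik1, Grik3 and Cacng5 are higher in batch 2 controls.

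With the RIN as a covariate in the batch 1 comparison, 6 of the 18 DEX calls remained, all lower, while the members' median log2 fold change was -0.33 (-0.31 without the covariate), beside 6.81% lower and 1.81% higher among all genes. They were Gria1, Gria3, Cacng2, Grin2b, Grin3a and Grm5. In DEX + RU-486 7 of the 13 remained (Gria1, Gria3, Cacng7, Cnih2, Grin2b, Grin3a and Grm5), with a median of -0.19 (-0.24 without the covariate), beside 5.39% and 1.94%. Adding the 8 libraries of lower RIN left 6 calls in DEX (Cacng2, Neto2, Grin2b, Grin3a, Grm5 and Grm3) and 1 in DEX + RU-486 (Grin2b), all lower, beside 5.53% lower and 2.98% higher, and 3.72% and 1.99%, of all genes, and the medians were -0.33 and -0.28.

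The falls in batch 1 were accompanied by other markers. Of the 7 neuron markers, 6 were lower in DEX (0 higher), with a median log2 fold change of -0.45 and a summed level of 2515 to 3505 CPM against 3355 to 4303 CPM in control. Of the 6 excitatory neuron markers 4 were lower, and 0 of the 6 inhibitory ones were called. Of 7 astrocyte markers 4 were higher, among them Gfap (2.43, SE 0.60) and Gja1 (2.53, SE 0.73), with a summed level of 23.7 to 39.1 CPM against 14.8 to 23.6 CPM. Of 8 oligodendrocyte lineage markers 7 were higher, among them Mbp (2.01, SE 0.30), with sums of 466 to 750 CPM against 61.4 to 277 CPM, and 3 of 6 progenitor markers were higher, while none of 3 microglia and 4 fibroblast or vessel markers tested was called. In DEX + RU-486, 5 neuron markers were lower and 2 astrocyte, 4 oligodendrocyte lineage and 5 progenitor markers higher, and no excitatory or inhibitory marker was called. In bulk RNA, fewer neurons and less receptor RNA per neuron cannot be told apart. Of 5 known glucocorticoid receptor targets, 3 were higher in batch 1 DEX (Per1, Tsc22d3 and Zbtb16) and 0 lower, beside 8.82% and 14.6% of all genes. DEX + RU-486 had 2 higher (Per1 and Tsc22d3) and 1 lower, beside 7% and 11.6%. The lower one was Fkbp5 (log2 fold change -0.55, SE 0.14, edgeR adjusted p = 0.00476). In batch 2 none was called against control. The part of cell composition in the members' changes was not tested.

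Scaling each library to the 7 neuron markers in place of TMM (a choice made after the data were seen) moved the median of all genes in batch 1 DEX from 0.01 to 0.44 and that of the members from -0.31 to 0.13, so the values that follow are relative to that shift. Under this scaling 3 members were lower and 9 higher, beside 0.501% and 32.8% of all genes. The 3 lower ones were Grin3a (-0.59, SE 0.19, edgeR adjusted p = 0.0173), Grm5 (-0.45, SE 0.10, edgeR adjusted p = 0.00109) and Grin2b (-0.39, SE 0.12, edgeR adjusted p = 0.0143). They kept their direction and their call under TMM, DESeq2, the RIN covariate, all 36 libraries and each left-out library as well. Gria2, Cacng4, Cacng7, Shisa9, Grin1 and Grid1 changed sign and were not called. The 9 higher ones were Cacng3, Grik1, Grik3, Grik5, Grin2c, Grin2d, Grin3b, Grm2 and Grm7. In DEX + RU-486, Grin3a (-0.57, SE 0.19) and Grm5 (-0.35, SE 0.10) were lower and Cacng3, Cacng5, Grik1, Grik3 and Grin2d higher, beside 0.467% and 22.5% of all genes.

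**Figure D5:**
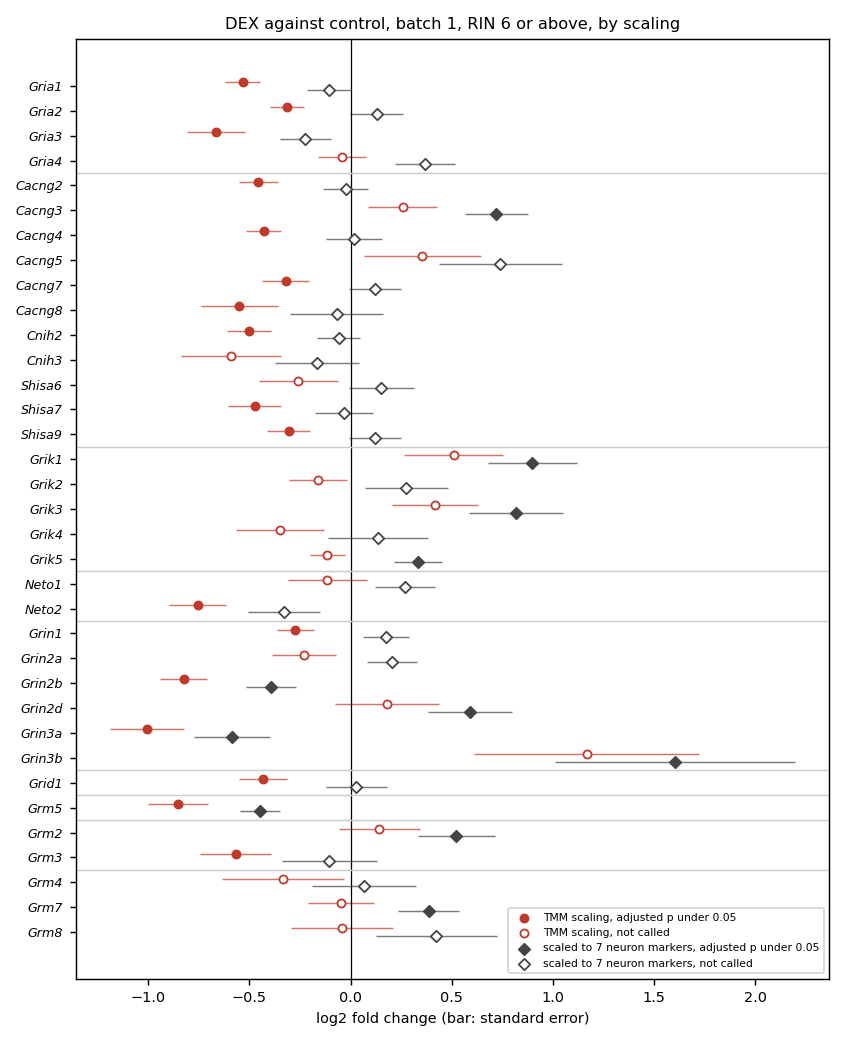
Log2 fold change of 35 members in DEX against control, batch 1, RIN 6 or above, with TMM scaling (circles) and with each library scaled to 7 neuron markers (diamonds). Bars are standard errors, filled symbols passed an adjusted p under 0.05, and Grin2c (3.56 and 3.92) is left out for scale. Grin2b, Grin3a and Grm5 are lower under both scalings, and Gria2 and Grin1 change sign.

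Ratios within a library do not depend on the scaling. The log2 ratio of Grin2a to Grin2b counts, which rises as cortical NMDA receptors mature, was -3.60 ± 0.53 (SD, n = 12) in control, -3.23 ± 0.36 (n = 12) in DEX and -3.24 ± 0.31 (n = 12) in DEX + RU-486. The differences from control were 0.37 (two-sided permutation test within batch, p = 0.0468, adjusted over 6 tests p = 0.0936) and 0.35 (permutation p = 0.0368, adjusted p = 0.0936), the second being 0.35 (permutation p = 0.0673, adjusted p = 0.202) without replicates 35 and 36. In batch 1 alone, with all 6 libraries a group, the DEX difference was 0.69 (exact permutation p = 0.00649, adjusted p = 0.0217), and with RIN of 6 or above (5 DEX, 6 controls) 0.61 (exact permutation p = 0.00866, adjusted p = 0.0346). In batch 2 alone it was 0.04 with all 6 a group (exact permutation p = 0.877) and 0.13 with RIN of 6 or above (n = 4 a group, exact permutation p = 0.514). The log2 ratio of Gria1 to Gria2 was -1.21 ± 0.40 in control, -1.33 ± 0.25 in DEX and -1.54 ± 0.27 in DEX + RU-486. It was lower in DEX + RU-486 than in control by 0.33 (difference -0.33, permutation p = 0.0332, adjusted p = 0.0936), with -0.41 (n = 6 a group) in batch 1 alone (exact permutation p = 0.0108, adjusted p = 0.0217) and -0.42 there with RIN of 6 or above (5 against 6, exact permutation p = 0.0173, adjusted p = 0.0346). In batch 2 alone it was -0.24 with all 6 a group (exact permutation p = 0.37) and -0.16 without replicates 35 and 36 (exact permutation p = 0.643). With RIN of 6 or above, batch 2 gave -0.43 (n = 4 a group, exact permutation p = 0.0571), and -0.14 without that pair (2 against 4, exact permutation p = 0.267, where 0.0667 is the smallest p possible). Without replicates 35 and 36 the pooled difference was -0.29 (n = 10 and 12, permutation p = 0.102, adjusted p = 0.204). Both ratios also differed with RNA integrity. In batch 2 they were -2.87 ± 0.47 and -1.77 ± 0.26 at a RIN under 3 (n = 6), against -3.40 ± 0.23 and -1.16 ± 0.28 at a RIN of 6 or above (n = 12), or -3.45 ± 0.22 and -1.05 ± 0.11 without replicates 35 and 36 (n = 10).

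Other genes of the glutamatergic synapse were read from fixed lists. Their counts stand beside the 14.6% lower and 8.82% higher of all genes in batch 1 DEX, and the 11.6% and 7% in DEX + RU-486. In batch 1 DEX, 8 of 20 postsynaptic scaffold genes were lower and 0 higher, led by Dlg2 (PSD-93, log2 fold change -0.68), Homer2, which links mGlu5 to its effectors (-0.59), and Dlg3 (SAP102, -0.46). Of 8 genes for AMPA receptor assembly and other partners, 3 were lower, Frrs1l (-0.68), Nsf (-0.56) and Olfm1 (-0.49). Of 10 synaptic adhesion genes 5 were lower, among them Nlgn3 (-0.81) and Nlgn1 (-0.72), and of 10 genes of glutamate transport and supply 3 were lower, among them the neuronal transporter Slc1a1 (-0.52). Of 10 kinases and plasticity effectors 5 were lower, among them Camk2g (-0.49), and 3 higher, led by the activity-regulated Arc (2.54, SE 0.48), which promotes AMPA receptor endocytosis. In DEX + RU-486 the counts in batch 1, lower and higher, were 6 and 0 for scaffolds, 3 and 0 for assembly, 5 and 0 for adhesion, 3 and 1 for transport, and 4 and 1 for kinases. In batch 2, 0 genes of these lists were called in either comparison with control, and between DEX + RU-486 and DEX 1 was, the adhesion gene Lrrtm3 (0.89, SE 0.20, edgeR adjusted p = 0.0388), which without replicates 35 and 36 was at 0.59 (SE 0.23, edgeR adjusted p = 0.9999).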

How the data were processed

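Counts of 36 RNAseq libraries were used, and groups, batches and RIN were taken from the sample labels, doses and times from the study's methods. The authors deposited 1 table of raw counts per gene, without normalization. Per the submitters' processing notes, HISAT2 2.1.0, Subread 1.5.0-p2 and GRCm38 were used, and the labels give poly(A) selection, whereas the study's methods describe libraries of total RNA, which was not settled here. Whether counting used strand is not given in the sources used here. Of 55492 rows, 5 are transgenes, and 55227 identifiers matched GENCODE M21, the source of symbols, coordinates and exon lengths.

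Genes with a mean count above 5 were kept, as in the study. edgeR 4.0.16 (R 4.3.3, TMM, quasi-likelihood) was fitted with group and batch on all 36 libraries, and as 1 mean per group and batch on the 28 with a RIN of 6 or above, with p-values adjusted (Benjamini-Hochberg) over the 20355 genes tested. SE is the size of the log2 fold change divided by the square root of F. CPM use TMM factors. Ratios used permutation tests (100000 resamples, or exact, numpy 2.4.6). DESeq2 1.42.0, other filters, factors, covariates and subsets, and each left-out library were alternatives.

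Members described library by library were those called in a treatment comparison, at most 12 per comparison by size of change, and 5 reference genes (Gria2, Grik2, Grin1, Grm5 and Cacng2). Shisa9, outside this rule, is named to complete a count. The members and gene lists were chosen with earlier results of these data known. In simulated counts for DEX against control with 100 genes changed 4-fold and 100 changed 2-fold among 20355, the fit recovered 92 and 65 in batch 1 and 89 and 67 in batch 2, with 6 and 7 false calls. Most called members changed by less than 2-fold, and no effect of RIN was simulated. These numbers therefore do not show how often changes of the members' size were missed or falsely called.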

Additional observations from a re-analysis of the deposited data

Results flagged for a closer look

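Among 120 sets of libraries (20 members in 6 groups of 4 to 6 libraries with a RIN of 6 or above), 12 held 1 library far from the others. Chance flags about 1 in 20 such sets. Cacng3 was at 45.1 CPM in batch 1 control replicate 1, with the next at 21.6, and Grm3 was lowest in the same library, at 26.2 CPM with the next at 35.3. Neto2 was at 251 CPM in batch 1 control replicate 5, with the next at 177. Grm5 was at 175 CPM in batch 1 DEX replicate 7 (next 106), at 154 CPM in batch 2 control replicate 24 (next 132) and at 133 CPM in batch 2 DEX + RU-486 replicate 33 (next 123). Grin3a was at 25.9 CPM in batch 1 DEX + RU-486 replicate 14 (next 17.6). In batch 2 DEX replicate 29, Grik2 was at 122 CPM (next 114) and Grin2b at 690 CPM (next 585). Grin2c, with few counts, was at 0.676 CPM in batch 1 DEX replicate 8 (next 0.349), 0.479 CPM in batch 1 DEX + RU-486 replicate 16 (next 0.124) and 0.172 CPM in batch 2 DEX replicate 27 (next 0).

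The effect against control differed between the batches, by the test of that difference in edgeR, for 5 members in DEX and 1 in DEX + RU-486. The log2 differences, batch 2 minus batch 1, in DEX were 0.532 for Cacng4 (adjusted p = 0.0171), 0.597 for Gria1 (adjusted p = 0.0103), 0.466 for Gria2 (adjusted p = 0.0356), 0.81 for Grin2b (adjusted p = 0.0103) and -5.87 for Grin2c (adjusted p = 0.0195). In DEX + RU-486 it was 0.776 for Grin2b (adjusted p = 0.0213), and 0.565 (adjusted p = 0.379) without replicates 35 and 36, which stood apart. RIN and depth differed between treated and control libraries in batch 1, and their part was not tested.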

How the results depend on the processing

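No paired analysis was possible because the library numbers in the labels are unique and shared by no 2 groups. With all libraries pooled, members called lower in DEX were 0, against 1 with DESeq2 (1.06% of all genes), 1 with RIN as a covariate (1.32%), 16 with RIN 6 or above (11.9%) and 13 in batch 1 alone (9.99%, and 2 higher beside 8.99%). In DEX + RU-486 they were 0, against 5 (5.87%) and 10 (8.46%) in the last 2 settings (1 higher in batch 1 alone, 6.92%). In batch 2 alone the sign turned for Grin2b, DEX against control (0.0464) and DEX + RU-486 against control (0.14). Within batch 1, the 17 lower and 1 higher in DEX became 6 and 0 with RIN as a covariate, 6 and 0 with all 36 libraries, and 3 and 9 when scaled to neuron markers, where Cacng4 (0.0155), Cacng7 (0.12), Gria2 (0.13), Grid1 (0.0266), Grin1 (0.17) and Shisa9 (0.12) reversed. The 12 lower and 1 higher in DEX + RU-486 became 7 and 0, 1 and 0, and 2 and 5, and Cacng2 (0.0429) reversed. The members' median log2 fold change with RIN as a covariate and with all 36 libraries was -0.33 and -0.33 in DEX (-0.31 as reported) and -0.19 and -0.28 in DEX + RU-486 (-0.24 as reported). Leaving out 1 library gave 11 to 17 lower and 1 to 2 higher in DEX, beside 1922 to 3004 and 1346 to 2051 of all 20355 genes. In DEX + RU-486 it gave 7 to 13 lower, beside 1358 to 2498. Between DEX + RU-486 and DEX in batch 2 it gave 0 to 2 higher and 0 to 2 lower (DESeq2 3 higher). Grid1 and Shisa9 were higher without DEX replicate 30, beside 383 higher and 269 lower genes. Without DEX + RU-486 replicate 33, Grid1 and Grik5 were higher and Gria4 and Grik1 lower, beside 209 and 123. Without replicate 34, Grid1 was higher, beside 185 and 148. The difference between batches, 4 higher and 1 lower in DEX, became 3 higher and 0 lower with RIN as a covariate (Gria1 and Grin2b among the 3; 2.47% and 0.624% of all genes), 0 and 0 with all 36 libraries (0.133% and 0.0393%), and 0 higher and 3 lower with neuron markers (0.059% and 5.2%, the median of all genes being -0.36). In DEX + RU-486, 1 higher (1.27% of all genes) became 2 with DESeq2 (1.98%) and 0 in the other settings, 1 of which left out DEX + RU-486 replicates 35 and 36. For Grin2a to Grin2b, RIN 6 or above gave 0.37 and 0.41 and batch 1 alone 0.69 and 0.63 (0.61 and 0.55 with RIN 6 or above), past the threshold, and DEX + RU-486 against DEX changed sign (0.0432 with RIN 6 or above, 0.0392 in batch 2, and 0.027 in batch 2 without replicates 35 and 36, or with RIN 6 or above in batch 2 0.145 and, without that pair, 0.044). For Gria1 to Gria2, DEX + RU-486 against control passed at -0.43 and -0.41 (-0.42 in batch 1 with RIN 6 or above), DEX + RU-486 against DEX at -0.27 with RIN 6 or above, and DEX in batch 2 alone was 0.0181. With RIN 6 or above and without replicates 35 and 36 (log2 ratios -1.83 and -1.58, against -1.07 and -1.17 in replicates 33 and 34), DEX + RU-486 against control was 0.362 for Grin2a to Grin2b and -0.282 for Gria1 to Gria2, both past the threshold, and DEX + RU-486 against DEX for Gria1 to Gria2 was -0.13, no longer past it (exact permutation, adjusted p = 0.132). The causes were not tested. Grin2c and Grin3b have too few counts for a firm value.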
